A study of Mus musculus with 12 samples.

Results

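Krt8 and Krt18 are the paired keratins of simple epithelia, and they were described here together with 2 further simple keratins, Krt7 and Krt19, and 4 genes that mark the epicardium and other mesothelium, Msln, Upk3b, Wt1 and Lrrn4. The keratins were picked after Krt8 had been seen to be higher after ischemia-reperfusion (IR) in these same libraries, and the mesothelial genes were set beside them, so that 8 of the 52858 genes in the files are described. RNA sequencing had been done on 12 mouse hearts, 3 in each of 4 groups. C57-non-IR and C57-IR hearts came from C57BL/6J mice, and Slit2-non-IR and Slit2-IR hearts came from Slit2-Tg mice, which carry a human full-length Slit2 cDNA under a CMV promoter and were kept as heterozygotes after injection of hybrid oocytes with C57 and CBA parents. All were adult males. Hearts were taken out and perfused through the aorta (Langendorff), and the IR hearts went through global no-flow ischemia followed by reperfusion while the non-IR hearts were perfused without a break. The genotype is stated in the labels, whereas the letters of the sample titles had to be matched to the groups of the study's methods to tell IR from non-IR.

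Keratins of simple epithelia form filaments from 1 type I and 1 type II chain, and Krt8 (type II) and Krt18 (type I) are the usual pair. In the adult heart the working myocardium uses desmin filaments, while the epicardium, the mesothelial sheet on the outer surface, carries keratin filaments. Msln encodes mesothelin, a surface protein of mesothelial cells, Upk3b a uroplakin made by mesothelium, Lrrn4 a leucine-rich repeat membrane protein also used as a mesothelial marker, and Wt1 a zinc finger transcription factor of the epicardium that some vascular endothelial cells also make. In RNA from heart tissue, which mixes cell types, fewer cells of a type and less RNA per cell cannot be told apart. The study's methods do not state which part of the heart was sequenced.

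Levels are given as FPKM (reads scaled to the length of the gene and to the depth of the library), which allows genes of different length to be set side by side. The reads behind them were few. Over the 12 libraries, Krt7 had 71 reads, Krt19 143, Lrrn4 147, Krt8 260, Krt18 273, Msln 492, Upk3b 671 and Wt1 1700, against 16601154 to 24841291 reads on genes in a library. Of the 8 genes, 7 passed the filter on low values used for testing, and Krt7 did not.

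Some libraries held more transcripts of lung, atrial or adipose marker genes than others. The summed FPKM of 11 lung and airway genes lay between 5.85 and 12.5 in 5 libraries (C57-non-IR replicates 2 and 3, C57-IR replicates 2 and 3, and Slit2-non-IR replicate 2), and between 0.206 and 0.354 in the other 7. The summed FPKM of 8 atrial genes reached 1847 in Slit2-IR replicate 1 and lay between 38.1 and 262 elsewhere. The summed FPKM of 8 adipose genes was 0.106 to 0.915 in C57-non-IR, 0.139 to 17.4 in C57-IR, 1.44 to 8.29 in Slit2-non-IR and 0.811 to 10.6 in Slit2-IR libraries. That of 14 general epithelial genes was 5.04 to 8.66 in every library and came mostly from Spint2 (5.38 FPKM on average), while the adhesion genes Epcam and Cdh1 did not exceed 0.169 and 0.0376 FPKM. The files' Slit2 row is the mouse gene (0.195 ± 0.0233 FPKM in C57-non-IR and 0.178 ± 0.00799 in Slit2-non-IR hearts, and after IR 0.243 ± 0.0348 in C57 and 0.350 ± 0.402 in Slit2-Tg hearts, of which 1 library was at 0.813, SD, n = 3), so it does not check for the human transgene.

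Krt8 was near the floor of detection in non-IR hearts and at 0.423 FPKM or more in every IR heart. In C57-non-IR hearts it was 0.0325, 0.0257 and 0.224 FPKM in replicates 1, 2 and 3, which rest on 1, 1 and 7 reads. In C57-IR hearts it was 1.27, 1.32 and 1.23 FPKM, from 40, 47 and 50 reads. The 3 C57-IR libraries were nearly alike, and all lay above the 3 C57-non-IR libraries. In Slit2-non-IR hearts Krt8 was 0.0267, 0.216 and 0.131 FPKM, from 1, 9 and 6 reads. In Slit2-IR hearts it was 1.31, 0.759 and 0.423 FPKM, from 48, 33 and 17 reads. The Slit2-IR libraries were spread more widely than the C57-IR libraries, yet the lowest of them was above the highest of all 6 non-IR libraries.

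The mean Krt8 level was 13.5-fold higher in C57-IR than in C57-non-IR hearts (1.27 ± 0.0438 against 0.0941 ± 0.113 FPKM, SD, n = 3). The ratio of the reads, 137 against 9 and scaled for depth, was 14.3 with an exact 95% interval of 7.30 to 31.9. This interval and those of all read ratios below cover counting error only, not the spread between hearts, and are not used as tests. In Slit2-Tg hearts the mean was 6.66-fold higher after IR (0.831 ± 0.448 against 0.125 ± 0.0949 FPKM), and the read ratio, 98 against 16, was 6.35 (3.72 to 11.5). The C57 fold depends on the 1 non-IR library with more than 1 read, since without C57-non-IR replicate 3 it was 43.8. In Slit2-Tg hearts the fold ranged between 4.74, with Slit2-IR replicate 1 left out, and 10.5, with Slit2-non-IR replicate 2 left out. No p-value is given for these or any other differences of the 8 genes between IR and non-IR hearts, because the genes were chosen on them.

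Krt18 followed the same order of groups with a smaller fold. It was 0.336, 0.199 and 0.165 FPKM in C57-non-IR hearts and 1.80, 1.23 and 1.08 FPKM in C57-IR hearts. It was 0.103, 0.681 and 0.536 FPKM in Slit2-non-IR hearts and 1.16, 1.19 and 0.833 FPKM in Slit2-IR hearts. As with Krt8, every IR library lay above every non-IR library, the closest being Slit2-IR replicate 3 and Slit2-non-IR replicate 2. The mean was 5.88-fold higher in C57-IR hearts (112 against 18 reads, read ratio 5.83, 95% interval 3.53 to 10.2) and 2.41-fold higher in Slit2-IR hearts (99 against 44 reads, read ratio 2.33, 1.62 to 3.41). For both keratins C57-non-IR hearts were the lowest on average, then Slit2-non-IR, then Slit2-IR, and C57-IR hearts were the highest, with overlap between the 2 lower groups and between the 2 higher groups and a gap between them.

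Krt8 and Krt18 were thus 2 of the 7 tested genes whose IR libraries all lay above the non-IR libraries, in C57 hearts, in Slit2-Tg hearts and over all 6 against 6 libraries. Of all 15258 genes tested, 6.74% did so in C57 hearts, 8.64% in Slit2-Tg hearts and 2.23% over all libraries. Krt8 chose the set, so nothing is read from these shares.

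**Figure D1:**
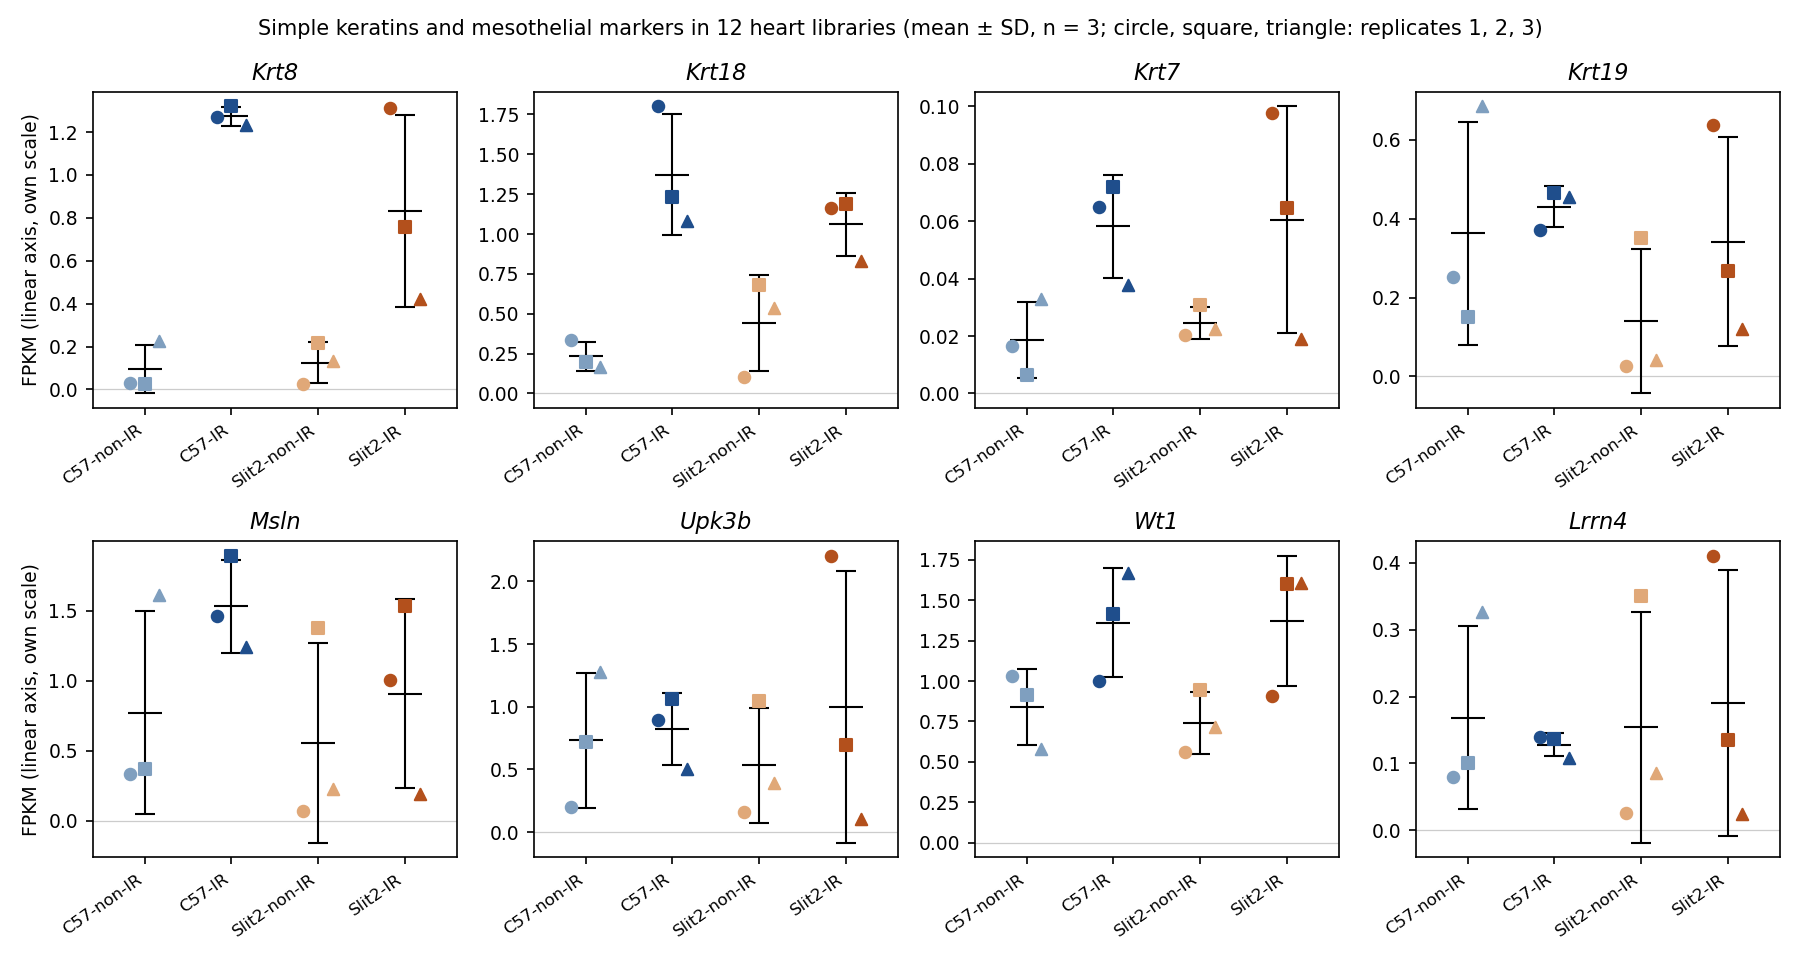
Level of the 8 genes in each of the 12 libraries, in FPKM on linear axes with a scale for each gene. Points are libraries (circle, square and triangle for replicates 1, 2 and 3), and black bars are the mean ± SD (n = 3). Krt8 and Krt18 have a gap between the non-IR and IR libraries in both genotypes, whereas Krt19, Msln, Upk3b, Wt1 and Lrrn4 overlap in both, and Krt7 overlaps in Slit2-Tg hearts.

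Krt8 and Krt18 are neighbours on chromosome 15 (GRCm38). Krt8 (ENSMUSG00000049382) spans chr15:101996711-102004342 on the minus strand and Krt18 (ENSMUSG00000023043) spans chr15:102028216-102032026 on the plus strand. The genes point away from each other, 23873 bases apart, with 0 other genes between them in the files, and neither overlaps another gene there. Krt7 (ENSMUSG00000023039) lies 566397 bases from Krt8 at chr15:101411043-101430313 with 32 genes in between. The others are spread over the genome, Krt19 (ENSMUSG00000020911) at chr11:100140810-100148665, Msln (ENSMUSG00000063011) at chr17:25748614-25754327, Upk3b (ENSMUSG00000042985) at chr5:136038496-136046487, and Wt1 (ENSMUSG00000016458) and Lrrn4 (ENSMUSG00000043110) at chr2:105126529-105173616 and chr2:132868305-132880891. RefSeq promoter sequences (GRCm38.p6) were at hand for 5 of the 8 genes, Krt8, Krt18, Krt7, Upk3b and Lrrn4. The 150 bases before the annotated start are shown for the 2 keratins whose IR libraries lay above the non-IR libraries and for Upk3b, a mesothelial gene whose IR and non-IR libraries overlapped, each 5′ to 3′ on the strand of its gene. They lie at chr15:102004343-102004492 (minus strand), chr15:102028066-102028215 (plus strand) and chr5:136038346-136038495 (plus strand). Capitals mark letters of a TATA box match.
Krt8: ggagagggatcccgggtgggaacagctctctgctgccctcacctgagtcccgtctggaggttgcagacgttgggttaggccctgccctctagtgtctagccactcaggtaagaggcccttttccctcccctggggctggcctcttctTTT
Krt18: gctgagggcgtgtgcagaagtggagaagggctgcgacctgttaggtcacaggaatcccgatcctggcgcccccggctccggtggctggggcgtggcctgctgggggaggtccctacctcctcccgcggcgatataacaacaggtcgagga
Upk3b: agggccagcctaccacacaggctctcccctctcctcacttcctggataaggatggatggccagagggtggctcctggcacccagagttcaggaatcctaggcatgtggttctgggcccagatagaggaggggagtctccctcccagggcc

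Windows of 300 bases, 250 before and 50 after the start, were searched on both strands for TATAAA, for the GC box GGGCGG, for the AP-1 site TGANTCA and for the heat shock element core GAANNTTC. Krt8 held 2 matches to TATAAA, 1 on each strand, which overlap each other at positions -3 and -1, counted from 0 at the first base of the gene, and run past the annotated start, so that only their first letters are in the stretch shown. Krt7 held 4 GC boxes. Krt18, Upk3b and Lrrn4 held none of the 4 motifs. Of the 32851 RefSeq promoter windows, 13.6% held TATAAA, 35.7% the GC box, 7.81% the AP-1 site and 7.86% the heat shock core. A match is a description of letters, and a missing match says nothing on whether a factor binds.

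The balance of the pair was followed as the ratio of Krt8 to Krt18 in a library. Krt8 was 0.705, 1.07 and 1.14 times the level of Krt18 in the C57-IR libraries when ordered from lowest to highest, and 0.507, 0.640 and 1.13 times in the Slit2-IR libraries. In Slit2-non-IR hearts the ratio was 0.245 to 0.317. In C57-non-IR hearts it was 0.0970, 0.129 and 1.36, where the last comes from replicate 3 with 7 reads of Krt8 and 4 of Krt18. The ratio thus separated the Slit2-Tg groups, and the C57 groups overlapped through 1 library. Since Krt8 was chosen for its rise after IR, nothing is read from this. Between genotypes, the log2 ratio differed by -0.41 after IR (Slit2-IR minus C57-IR, p = 0.3) and by 0.08 without IR (p = 1), in two-sided exact permutation tests for which 0.1 is the smallest p that n = 3 against 3 allows.

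The other simple keratins were at low levels. Krt7, a type II keratin of ducts and mesothelium, ranged from 0.00657 to 0.0978 FPKM and had 1 to 14 reads in a library. Its C57-IR libraries lay above its C57-non-IR libraries (24 against 7 reads, read ratio 3.21, 95% interval 1.34 to 8.83), while the Slit2-Tg groups overlapped through Slit2-IR replicate 3, which had 3 reads. Krt19, a small type I keratin of simple epithelia, had means of 0.363 ± 0.284 and 0.430 ± 0.0518 FPKM in C57 hearts without and after IR, and of 0.140 ± 0.183 and 0.342 ± 0.266 FPKM in Slit2-Tg hearts. Its groups overlapped in both genotypes, and its highest library was a non-IR heart, C57-non-IR replicate 3, at 0.685 FPKM. The ratio of the means of Krt19 moved to 2.14 in C57 hearts without that library and to 9.98 in Slit2-Tg hearts without Slit2-non-IR replicate 2.

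Outside these 4, 51 further Krt genes were in the files, 19 had any read and 3 passed the filter. Krt222 (6.33 FPKM on average), Krt10 (1.52) and Krt80 (1.31) had log2 fold changes of 0.21 ± 0.14, 0.05 ± 0.09 and -0.09 ± 0.13 (SE) for IR against non-IR over both genotypes, and 0 of the 3 were called in any of the 6 comparisons or at an unadjusted p under 0.05 (limma), and limma-voom also called 0. Of 18 other intermediate filament and anchoring genes, 17 were in the files and tested. Over both genotypes, 1 of them rose and 0 fell after IR at an adjusted p under 0.05, against 2.33% of all genes tested that rose and 1.15% that fell. It was Lmna, which encodes the nuclear lamins A and C, at 18.6 ± 2.02 and 34.0 ± 10.3 FPKM in C57-non-IR and C57-IR hearts and 17.1 ± 0.447 and 32.5 ± 3.52 FPKM in Slit2-non-IR and Slit2-IR hearts (log2 fold change 0.84 ± 0.13, SE, limma adjusted p = 0.00591, 0.000196 to 0.0213 over the alternatives). Without C57-IR replicate 1 the count was 3, with Vim and Nes added, and without Slit2-IR replicate 1 it was 2, with Nes. The median log2 fold change of the 17 genes was 0.05, beside 0.00 for all genes tested.

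The mesothelial genes varied widely within groups. Msln was 0.333, 0.373 and 1.61 FPKM in C57-non-IR hearts and 1.46, 1.89 and 1.24 FPKM in C57-IR hearts. It was 0.0684, 1.37 and 0.224 FPKM in Slit2-non-IR hearts and 1.002, 1.53 and 0.191 FPKM in Slit2-IR hearts. Within both non-IR groups and within Slit2-IR hearts, 1 or 2 libraries were high and the others low, so that the groups overlapped in both genotypes. The mean after IR was 1.98 times that without IR in C57 hearts and 1.64 times in Slit2-Tg hearts, with SDs of 0.332 to 0.727 FPKM around means of 0.556 to 1.53 FPKM. Without C57-non-IR replicate 3 the C57 ratio was 4.34. In Slit2-Tg hearts it was 6.21 without Slit2-non-IR replicate 2 and 1.07 without Slit2-IR replicate 2.

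Upk3b ranged even further within 1 group. It was 0.200, 0.722 and 1.28 FPKM in C57-non-IR, and 0.893, 1.06 and 0.504 FPKM in C57-IR hearts. It was 0.164, 1.04 and 0.392 FPKM in Slit2-non-IR, and 2.20, 0.694 and 0.102 FPKM in Slit2-IR hearts. The highest and the lowest of all 12 libraries were thus both Slit2-IR hearts, replicates 1 and 3, and replicate 1 is the library with the high atrial sum. Lrrn4 had the same extremes, at 0.411 FPKM in Slit2-IR replicate 1 and 0.0242 FPKM in Slit2-IR replicate 3, with group means of 0.128 to 0.190 FPKM and overlap throughout. The ratio of mean Upk3b after IR to that without was 1.12 in C57 and 1.88 in Slit2-Tg hearts, and for Lrrn4 it was 0.758 and 1.23. The direction of these ratios turned with 1 library. For Upk3b, the C57 ratio was 0.820 without C57-non-IR replicate 1, 0.953 without C57-IR replicate 2 and 1.78 without C57-non-IR replicate 3, and the Slit2-Tg ratio was 0.746 without Slit2-IR replicate 1 and 3.601 without Slit2-non-IR replicate 2. For Lrrn4, the C57 ratio was 1.43 without C57-non-IR replicate 3, and the Slit2-Tg ratio was 0.515 without Slit2-IR replicate 1, 0.872 without Slit2-non-IR replicate 1 and 3.42 without Slit2-non-IR replicate 2. The part of atrial tissue in the high values of Slit2-IR replicate 1 was not tested.

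Wt1 had the most reads of the 8 genes and the smallest ratio of the highest to the lowest library. It was 1.03, 0.912 and 0.578 FPKM in C57-non-IR, and 0.999, 1.42 and 1.67 FPKM in C57-IR hearts. It was 0.560, 0.945 and 0.714 FPKM in Slit2-non-IR, and 0.906, 1.60 and 1.61 FPKM in Slit2-IR hearts. In each IR group replicates 2 and 3 lay above all non-IR libraries and replicate 1 among them. The mean after IR was 1.62 times that without in C57 and 1.86 times in Slit2-Tg hearts (log2 fold changes 0.36 ± 0.15 and 0.44 ± 0.15, SE).

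**Figure D2:**
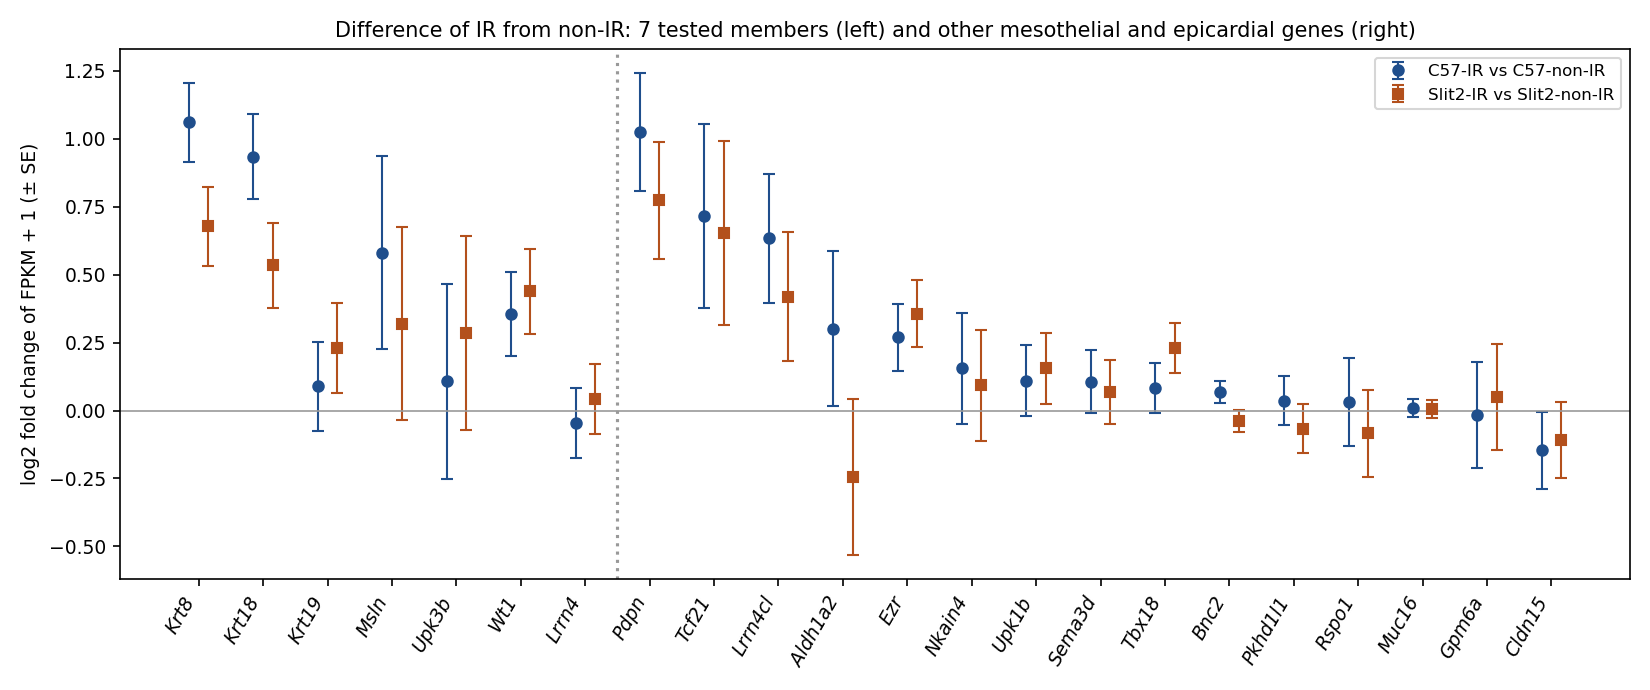
Difference of IR from non-IR hearts in each genotype, as the log2 fold change of FPKM + 1 with its standard error (limma, 12 libraries). To the left of the dotted line are the 7 tested members of the described set, and to the right 15 other mesothelial and epicardial genes. In C57 hearts Krt8 and Krt18 (1.06 and 0.93) stand above the mesothelial members Msln, Upk3b, Wt1 and Lrrn4 (-0.04 to 0.58), and Pdpn (1.02) is the highest of the other genes. In Slit2-Tg hearts the keratins (0.68 and 0.53) stand less apart from the mesothelial members (0.04 to 0.44). There Wt1 (0.44 ± 0.15, SE) lies close to Krt18 (0.53 ± 0.16), Pdpn (0.77) is above both keratins, and Tcf21 (0.65) is above Krt18.

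A list of 18 other mesothelial and epicardial genes gave a wider view, of which 15 were tested. In C57 hearts and in Slit2-Tg hearts taken alone, 0 of the 15 were called after IR (limma, adjusted p under 0.05), while 2 and 3 were higher at an unadjusted p under 0.05 and 0 lower (4.54% and 6.15% of all genes were higher at that p). With limma-voom on the recovered reads the counts of calls were also 0. Of all genes, 0.439% and 0.505% were called in these comparisons, and for Slit2-Tg hearts, whose same-numbered libraries deviate together, the number called was 194 with the replicate block in place of 77. Over both genotypes, 1 of the 15 rose and 0 fell, against 2.33% and 1.15% of all genes, and 5 were higher and 0 lower at an unadjusted p under 0.05, which 15.9% of all genes passed in either direction. The gene called was Pdpn, which encodes podoplanin, a membrane glycoprotein of mesothelium that lymphatic endothelium and activated fibroblasts also make. Pdpn was 2.14 ± 0.0974 and 5.65 ± 2.12 FPKM in C57-non-IR and C57-IR hearts, and 2.31 ± 0.332 and 4.69 ± 0.878 FPKM in Slit2-non-IR and Slit2-IR hearts (log2 fold change 0.90 ± 0.15, SE, adjusted p = 0.00855, 0.000205 to 0.0292 over the alternatives). All 6 IR libraries lay above all 6 non-IR libraries.

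Further genes of that list are named here after their values were seen. The other 4 that passed the unadjusted p, Ezr, Lrrn4cl, Tcf21 and Tbx18, had log2 fold changes of 0.31, 0.53, 0.68 and 0.16 over both genotypes with adjusted p between 0.0814 and 0.267. Of these, Ezr encodes ezrin, which links membrane and actin, and Tcf21 and Tbx18 encode transcription factors of the epicardium, of which Tcf21 also marks fibroblasts. Upk1b, a uroplakin, averaged 0.206 FPKM, a level at which log2(FPKM + 1) can move little, and its means were 0.175 and 0.266 FPKM in C57-non-IR and C57-IR hearts and 0.121 and 0.261 FPKM in Slit2-non-IR and Slit2-IR hearts, with overlap. Calb2, which encodes calretinin, was at 0 in all 12 libraries. The median of the 15 was 0.09, beside 0.00 for all genes, and 12 were above 0. The summed FPKM of the list was 26.9 to 35.1 in the non-IR groups and 38.1 to 54.4 in the IR groups, a sum made up largely of Ezr (11.6 to 17.7 FPKM), Tcf21, Lrrn4cl and Pdpn.

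Within a library, Krt8 was then set against the mesothelial markers. The ratio of Krt8 to Msln was 0.0689 to 0.139 in C57-non-IR and 0.697 to 0.993 in C57-IR hearts, without overlap. In Slit2-Tg hearts it was 0.157 to 0.586 without IR and 0.496 to 2.21 after IR, with overlap. The ratio of Krt8 to Upk3b was 0.0356 to 0.176 and 0.163 to 0.335 in the C57-non-IR and Slit2-non-IR libraries, against 1.24 to 2.44 and 0.594 to 4.16 in the C57-IR and Slit2-IR libraries, so that all IR libraries lay above all non-IR libraries. Krt18 relative to either marker overlapped between IR and non-IR in both genotypes. Krt8 was chosen for its rise after IR, so nothing is read from the separation of its ratios. In C57-non-IR replicates 1 and 2 and in Slit2-non-IR replicate 1 these ratios rest on 1 read of Krt8.

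In the IR hearts of both genotypes, the difference of the log2 ratio of Krt8 to Msln was 0.42 (Slit2-IR minus C57-IR, exact permutation p = 0.6, two-sided, n = 3). The smallest p that n = 3 against 3 allows is 0.1, so the test could not reach 0.05 and decides nothing.

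**Figure D3:**
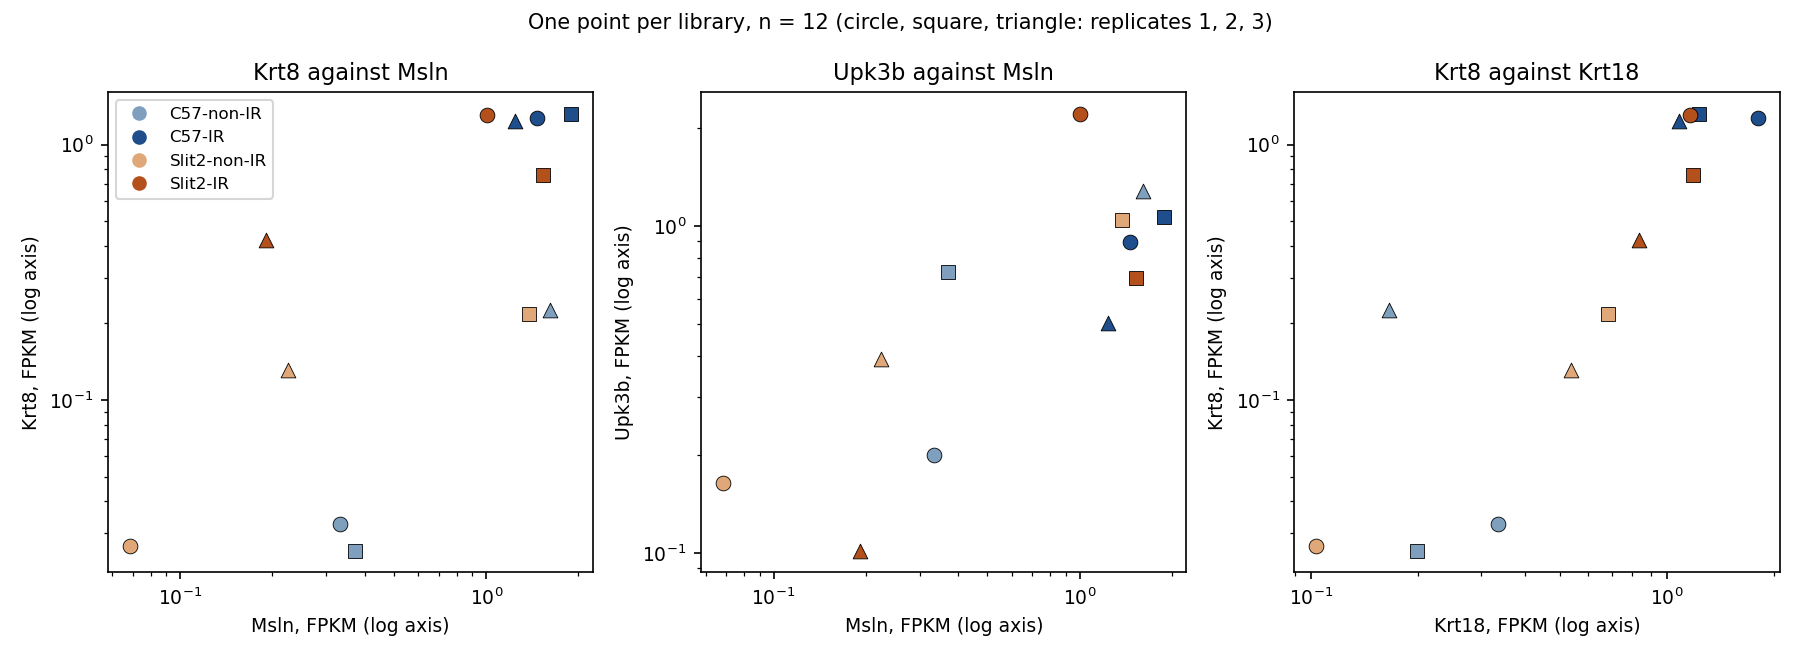
Level of 1 gene against another in each of the 12 libraries, in FPKM on log axes, coloured by group and with circle, square and triangle for replicates 1, 2 and 3. In the first panel all IR libraries lie higher on the Krt8 axis (0.423 FPKM or more) than all non-IR libraries (0.224 FPKM or less) while their Msln levels overlap, in the second panel Upk3b and Msln of IR and non-IR libraries are mixed, and in the third Krt8 and Krt18 separate them together.

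**Figure D4:**
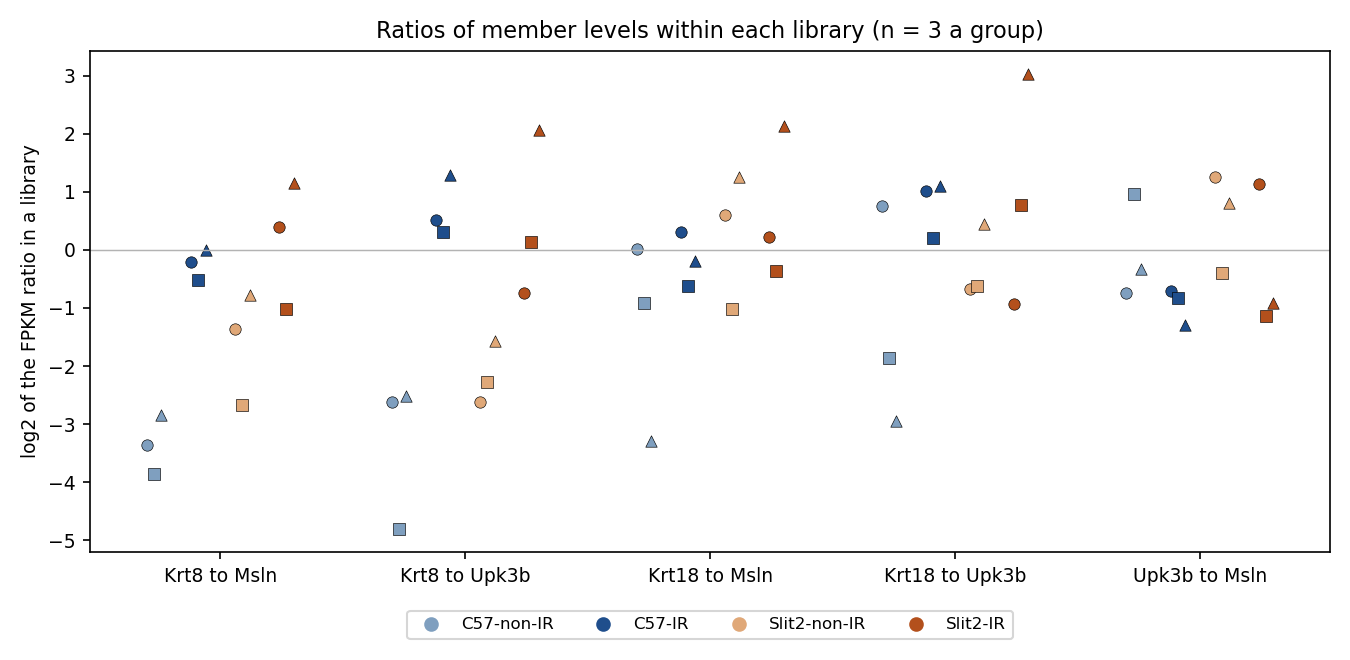
log2 of the ratio of the FPKM of 2 genes within each library, for 5 pairs, with 3 libraries a group and the marker shapes giving replicates 1, 2 and 3. Krt8 to Upk3b separates IR from non-IR libraries in both genotypes, Krt8 to Msln separates them in C57 hearts, and the ratios of Krt18 to either marker and of Upk3b to Msln overlap. Krt8 was chosen for its rise after IR, so nothing is read from the separation of its ratios.

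Across the 12 libraries, Krt8 and Krt18 had a Pearson r of 0.90 on log2(FPKM + 1), and Krt8 had an r of 0.67 with Msln, 0.56 with Wt1, 0.50 with Upk3b and 0.26 with Lrrn4. These are descriptions over libraries that share group, depth and few reads. With the mean of each group taken off, the order was different. Krt8 then had an r of 0.93 with Upk3b, 0.91 with Lrrn4, 0.87 with Krt19 and 0.68 with Msln, and of 0.40 with Krt18. The libraries furthest from their group mean of Krt8 were Slit2-IR replicates 1 and 3 (1.31 and 0.423 FPKM around 0.831). They are also the extremes of Upk3b (2.20 and 0.102 FPKM) and Lrrn4 (0.411 and 0.0242 FPKM), and replicate 1 has the high atrial sum. The r without them was not computed. Upk3b, Lrrn4, Krt19 and Msln had r of 0.74 to 0.95 among themselves within groups. Wt1 stood outside them, with r of -0.55 to -0.11 with these 5 genes (Krt8 included) and -0.0036 with Krt18.

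The 5 tested genes whose pattern over the 12 libraries was most like that of Krt8 were Ikzf4, Dusp5, Sbno2, Sele and Flrt3 (r of 0.91 to 0.93). With the mean of each group taken off, their r with Krt8 was 0.47 to 0.74. Since Krt8 was chosen for its rise after IR, genes that rise after IR come high in this order. Dusp5 encodes a phosphatase of nuclear ERK and Sele encodes E-selectin of activated endothelium. Sele was 0.431 and 7.42 FPKM on average in C57-non-IR and C57-IR hearts, and 0.417 and 8.36 FPKM in Slit2-non-IR and Slit2-IR hearts. Dusp5 was 3.93 and 11.7 FPKM, and 3.53 and 11.2 FPKM in the same groups. For Msln the 5 were Nkain4, Efemp1, Slfn5os, Mmrn1 and Wls (r of 0.83 to 0.90, and 0.81 to 0.92 with group means taken off). Nkain4 belongs to the mesothelial list. For Nkain4 the IR and non-IR libraries overlapped in both genotypes (0.299 to 0.933 and 0.614 to 0.786 FPKM in C57-non-IR and C57-IR, 0.195 to 0.805 and 0.181 to 1.01 FPKM in Slit2-non-IR and Slit2-IR hearts).

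Of the lists for other cell types, 0 genes were called after IR over both genotypes (limma adjusted p under 0.05, and likewise limma-voom). At an unadjusted p under 0.05, which 15.9% of all genes passed, the counts were 0 of 3 tested lung genes, 1 of 4 general epithelial genes (Prom1, lower), 0 of 6 adipose genes, 0 of 7 atrial genes, 1 of 8 fibroblast genes, and 0 of 8 genes each for endothelium and cardiomyocytes. Of the 8 thymus genes, 0 were high enough to test. Within a genotype the adipose genes differed from this, since at an unadjusted p under 0.05 (limma) 4 of the 6 were higher after IR in C57 hearts, beside 4.54% of all genes, with 0 called and a median log2 fold change of 0.68, and 0 of the 6 in Slit2-Tg hearts. The adipose sum thus moved with Krt8 in the C57 groups, with medians of 0.326 and 14.6 FPKM, but in C57-IR replicate 1 it was 0.139 FPKM, with Adipoq, Retn and Ucp1 at 0, and Krt8 there was 1.27 FPKM. The 7 atrial genes were all above 0 in both genotypes, with medians of 1.05 and 1.80, and 0 passed the unadjusted p. The atrial sum was 1847 FPKM in Slit2-IR replicate 1. In Slit2-IR replicates 2 and 3 it was 119 and 79.2 FPKM, within the 53.6 to 124 FPKM of Slit2-non-IR hearts. The C57 groups also overlapped, at 38.1 to 103 FPKM without IR and 99.0 to 262 FPKM after IR. The part of adipose and atrial tissue in the values of the 8 genes was not tested.

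The lung marker genes moved with some of these values. Among non-IR hearts, the 2 libraries highest in Krt8, Krt7, Krt19, Msln, Upk3b and Lrrn4 were C57-non-IR replicate 3 and Slit2-non-IR replicate 2, which also had the highest lung sums there (10.1 and 12.5 FPKM). Krt18 and Wt1 were the lowest of their group in the former (0.165 and 0.578 FPKM) and the highest in the latter (0.681 and 0.945 FPKM). C57-non-IR replicate 2, with a lung sum of 5.85 FPKM, had the lowest Krt8 and Krt7 of the 12 libraries (0.0257 and 0.00657 FPKM, 1 read each). Its Msln was 0.373 and its Upk3b 0.722 FPKM. Among IR hearts, Krt8 was 1.27 and 1.31 FPKM in C57-IR replicate 1 and Slit2-IR replicate 1, with lung sums of 0.312 and 0.282 FPKM and with the lung genes Scgb1a1 and Sftpc at 0, and 1.32 and 1.23 FPKM in C57-IR replicates 2 and 3, with lung sums of 9.86 and 11.7 FPKM. With the 5 libraries above a lung sum of 1 FPKM left out, a choice made after seeing the data, Krt8 in the remaining 4 IR and 3 non-IR hearts was 14.8-fold higher after IR and Krt18 3.83-fold higher, both without overlap, beside 9.62-fold and 3.61-fold with all 12. Msln was then 5.02-fold and Upk3b 3.87-fold higher, with overlap, beside 1.84-fold and 1.44-fold with all 12. The part of lung RNA in the mesothelial values was not tested.

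The genotype of the hearts was not used in choosing the genes, so it was tested. The choice did rest on the IR values of Krt8, which enter the comparison of IR hearts and the interaction. For Krt8, and for Krt18 as its pair, those tests are therefore not independent of the choice. The same holds for the permutation tests of the Krt8 ratios in IR hearts. The comparison of non-IR hearts uses no IR values. Of the 7 tested genes, 0 were called for genotype in non-IR hearts, for genotype in IR hearts, or for the interaction of genotype and IR (limma on all 15258 genes, adjusted p under 0.05), and limma-voom on the recovered reads also called 0. At an unadjusted p under 0.05 the counts were 0, 1 and 0 with limma and 0 in each with limma-voom. Of all genes, 0.0393%, 0.0459% and 0% were called in the 3 comparisons, and 3.18%, 3.16% and 1.85% passed the unadjusted p. The 1 gene was Krt8, at 0.831 ± 0.448 FPKM in Slit2-IR against 1.27 ± 0.0438 FPKM in C57-IR hearts (log2 fold change -0.34, 95% interval -0.66 to -0.02, unadjusted p = 0.0382, or 0.0546 with the replicate block, adjusted p = 0.9996, 0.575 to 1 over the alternatives). Slit2-IR replicate 1 lay within the range of the C57-IR libraries, and replicates 2 and 3 below it. Without Slit2-IR replicate 1 the log2 fold change was -0.52, and without replicate 3 it was -0.17.

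For Krt18 the values were -0.20 after IR (95% interval -0.54 to 0.15) and 0.20 without IR (-0.14 to 0.55). The log2 fold change of Krt8 after IR was 1.06 in C57 and 0.68 in Slit2-Tg hearts, an interaction of -0.38 (95% interval -0.83 to 0.07, limma unadjusted p = 0.0890, adjusted p = 0.9998). That of Krt18 was 0.93 and 0.53, an interaction of -0.40 (-0.89 to 0.09, limma unadjusted p = 0.0983, adjusted p = 0.9998). Both intervals include 0. With the pseudocount of 0.1 the interactions of Krt8 and Krt18 were -0.94 and -0.84, and with limma-voom they were -1.36 and -0.95. The size of this difference thus depended on the scale, and the intervals above hold for log2(FPKM + 1) only. For Msln and Upk3b the intervals of the difference between Slit2-IR and C57-IR were wider, -1.25 to 0.31 and -0.78 to 0.80, and for Wt1 the interval was -0.34 to 0.34. The lung sums of these groups differed, at 0.312, 9.86 and 11.7 FPKM in C57-IR and 0.282 to 0.343 FPKM in Slit2-IR libraries. The part of lung RNA in these differences was not tested.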

How the data were processed

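Total RNA of 12 mouse hearts was sequenced by the authors, and the deposited tables hold FPKM per gene and library. The submitters' processing notes name HISAT2 and mm10; further settings are not given in the sources used here. FPKM times gene length came out as whole multiples of 1 step per library for 100% of values (tolerance 0.02 reads), which gave the reads; the steps follow median-of-ratios size factors. The 8 genes and all lists were chosen with earlier results of these data known.

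A gene was tested where its reads, at the depth of the median library, were 10 or more in at least 3 libraries and 15 or more in all (15258 of 52858 genes). log2(FPKM + 1) was fitted in 4 groups with limma 3.58.1 (R 4.3.3, variance trend), with Benjamini-Hochberg adjustment and a threshold of 0.05, in 6 comparisons. This scale understates changes of low genes. On simulated data for C57-IR against C57-non-IR (15258 genes), 93.5% of 200 genes changed 4-fold were recovered, 87% of those whose mean was in the lower part (under the median), with 10 false calls. The simulated reads had the same spread for every gene and no difference in tissue content between libraries. They check the procedure and do not give the recovery rate of the real libraries. Ratios were compared with exact permutation tests (scipy 1.17.1). Named list genes were those called in any comparison, otherwise the 3 highest. The 3 libraries of a group were treated as independent samples, since the study gives n = 3 per group for the sequencing. Same-numbered libraries deviated together (every r over 0.1) between Slit2-IR and Slit2-non-IR (0.142 to 0.295) and between Slit2-IR and C57-IR (0.154 to 0.362), so the numbers were taken to pair them. Alternatives were a pseudocount of 0.1, no filter, 10 reads in every library, only the libraries compared, a replicate block, total-read scaling, limma-voom on recovered reads, leaving out each library, and leaving out libraries with lung RNA.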

Additional observations from a re-analysis of the deposited data

How the results depend on the processing

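The numbers of genes called depended on the setting more than the values of the 8 genes did, and the cause was not tested. From 67 genes (C57-IR against C57-non-IR), no filter gave 7, only the libraries compared 9, the replicate block 171, total-read scaling 43 and limma-voom 32, and leaving out a library 3 to 254. From 77 (Slit2-IR against Slit2-non-IR), no filter gave 19, the block 194 and limma-voom 121, and leaving out a library 4 to 178. From 531 (both genotypes), no filter gave 299 and leaving out a library 329 to 713. From 6 (Slit2-non-IR against C57-non-IR), the pseudocount of 0.1 gave 10, no filter 11, 10 reads in every library 3 and the block 2, and leaving out a library 1 to 14. From 7 (Slit2-IR against C57-IR), 10 reads in every library gave 3, only the libraries compared 4, and leaving out a library 4 to 12. From 0 (interaction), no filter gave 4 and leaving out a library 0 to 1. The block changed no call of the 7 tested genes in the genotype comparisons, and added Tcf21 to Pdpn over both genotypes. The IR to non-IR folds of mean FPKM that crossed 1 with the lung RNA libraries left out were those of Wt1 (0.967) and Lrrn4 (1.76) in C57 hearts, each then 1 library against 1, and of Lrrn4 over both genotypes (2.79). Of the reruns of genotype tests of the 7 genes, 32 changed sign and 342 kept sign and side of the threshold. On the log2 scale, genotype without IR spanned, over the fits that each left out 1 library, -0.017 to 0.12 for Krt8, -0.56 to 0.11 for Msln, -0.41 to 0.052 for Upk3b and -0.14 to 0.072 for Lrrn4. Genotype after IR spanned -0.26 to 0.012 for Krt19, -0.40 to 0.37 for Upk3b, -0.11 to 0.15 for Wt1 and -0.065 to 0.17 for Lrrn4. The interaction spanned -0.023 to 0.27 for Krt19, -0.58 to 0.091 for Msln, -0.23 to 0.54 for Upk3b, -0.033 to 0.23 for Wt1 and -0.043 to 0.21 for Lrrn4. The pseudocount of 0.1 gave -0.31 for Upk3b and -0.0025 for Wt1 after IR, and limma-voom gave -0.53 for Upk3b, -0.0098 for Wt1 and -0.17 for Lrrn4 after IR and -0.054 for the interaction of Upk3b. The log2 ratio of Krt8 to Krt18 between non-IR genotypes was -0.26 with the pseudocount of 0.1 and -0.62 to 1.28 with a library left out, and that of Krt8 to Msln after IR was -0.068 to 1.01. With 1 to 9 reads of Krt8 in a non-IR library, differences in that group smaller than counting error were not detectable at this depth.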
